A study of Danio rerio with 12 samples.

Results

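The genes bhlhe40, bhlhe41 and ciarta encode repressors that act on E-boxes, the short DNA elements through which the activators of the circadian clock switch on their targets. They were followed here in the zebrafish pineal gland, a light-sensitive gland on top of the brain that secretes melatonin at night, by circadian time and after a light pulse. Of the 15617 probe sets in the table, 3 carried exactly 1 of these symbols in the platform annotation, 1 for each gene. All 3 passed the filter on dim probe sets that kept 9301 of the 15502 non-control probe sets. The genes were chosen by their light differences and time-of-day amplitudes in these same arrays, so those values are given as a description, with no p. Probe sets are named without coordinates, because the array annotation used states no build.

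Total RNA was hybridised to a 1-colour Affymetrix zebrafish array, and each of the 12 arrays held 1 pool of 12 glands. The 6 light pools came from fish that received light of 12 W/m2 for the last 1 h before sampling. They were taken every 4 h over 1 cycle, with 1 pool at each time, beginning at CT2 and ending at CT22 (circadian time in hours from subjective dawn). The 6 dark pools came from fish of the same times kept in darkness. All pools, light and dark alike, came from adult males and females of 0.5 to 1.5 years of the line Tg(aanat2:EGFP)Y8, in which the regulatory regions of the melatonin enzyme gene aanat2 drive a green fluorescent protein; all fish were raised in 12 h of light and 12 h of dark and moved to constant darkness the evening before. With 1 pool per time and treatment, neither a single pool nor a single time has a replicate of its own, and in pooled tissue fewer cells of a type and less RNA per cell cannot be told apart.

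In the vertebrate clock, the activators Clock and Bmal bind E-boxes as a pair and raise the genes of their own repressors. Bhlhe40 and Bhlhe41, also called Dec1 and Dec2, belong to the bHLH-Orange family; they occupy E-boxes themselves and recruit repressor complexes. The mammalian counterpart of ciarta, known as Chrono, represses by binding Bmal1. In zebrafish, whose tissues sense light directly, light also acts on clock genes, and per2 is the example best known.

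The deposited value is the MAS5 signal, a background-corrected brightness per probe set on a linear scale, scaled by the authors to the same trimmed mean on every array. Differences below are in log2(signal + 13), so they are smaller than the plain ratio where the signal is low. The median signal of an array was 70.3 to 99.5. The spike-in controls, bacterial and phage transcripts added at hybridisation, did not lie at 1 level. Their mean log2 level over 18 probe sets was 10.30 to 11.20 on the light arrays, against 9.58 to 9.83 on the dark arrays of CT2 to CT18 and 10.62 on the dark array of CT22. No label names a batch. All 9 pineal markers on the array were above the filter (aanat2, exorh and crx among them), with a summed signal of 14624 to 21582 on the light arrays and 12872 to 18274 on the dark arrays.

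Bhlhe40 was higher in the light pool than in the dark pool at all 6 times, and both courses had their minimum at CT10. Its signal in light was 5504 at CT2, 1875 at CT6, 252.5 at CT10, 1988 at CT14, 9835 at CT18 and 4718 at CT22. In darkness it was 3102 at CT2, 1330 at CT6, 118.5 at CT10, 375 at CT14, 3113 at CT18 and 3348 at CT22. The highest array of all was thus light at CT18, while in darkness CT2, CT18 and CT22 lay close together. The ranges of the light and dark arrays overlapped, because the change over the day was larger than the light difference. The light signal was 38.9 times as high at its maximum as at its minimum, and the dark signal 28.2 times.

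Bhlhe41 had a sharper maximum at CT18 and crossed over between light and dark. Its signal in light was 209 at CT2, 78.4 at CT6, 109.8 at CT10, 798 at CT14, 2853 at CT18 and 1066 at CT22. In darkness it was 349 at CT2, 117.7 at CT6, 59.2 at CT10, 381 at CT14, 1741 at CT18 and 911 at CT22. The light pool was the lower one at CT2 and CT6 and the higher one at the other 4 times. The minimum of the light course fell at CT6 and that of the dark course at CT10.

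Ciarta followed a course like that of bhlhe41, with the widest spread between light and dark on the log2 scale at CT10 and CT14. Its signal in light was 144 at CT2, 42.0 at CT6, 128.7 at CT10, 701 at CT14, 1868 at CT18 and 802 at CT22. In darkness it was 179 at CT2, 36.1 at CT6, 25.9 at CT10, 118.0 at CT14, 910 at CT18 and 587 at CT22. The light pool was lower at CT2 only. The signals of light at CT6 and of darkness at CT6 and CT10 lay under 58.3, the signal that matches the filter, so ratios that rest on these arrays are uncertain.

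**Figure D1:**
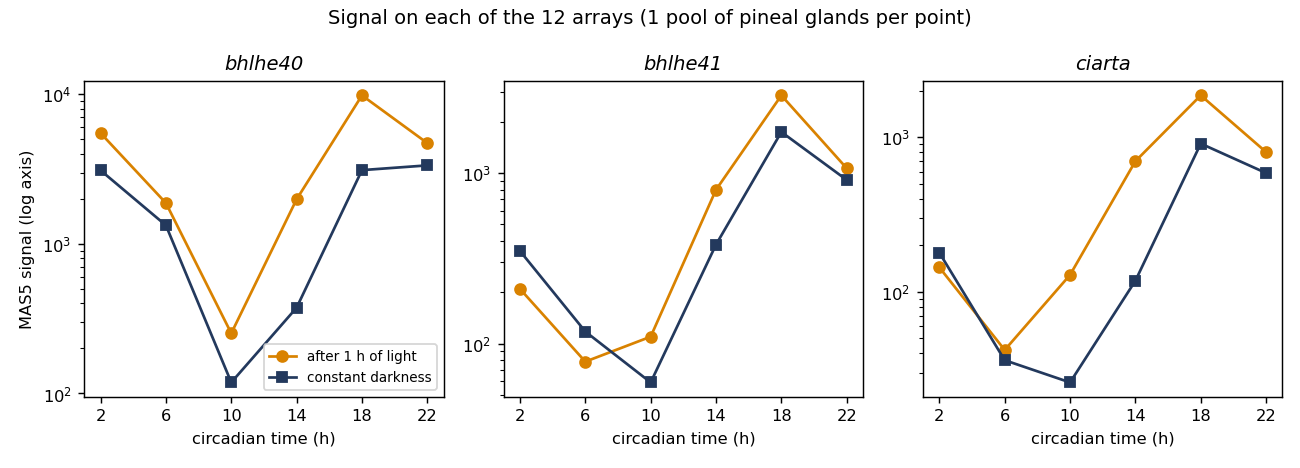
MAS5 signal (log axis) of bhlhe40, bhlhe41 and ciarta against circadian time in hours, with 1 point per array; circles are pools after 1 h of light and squares are pools in constant darkness. All 3 genes are highest at CT18 in light (9835, 2853 and 1868), and the light curve of bhlhe40 lies above the dark curve at all 6 times. That of ciarta crosses the dark curve between CT2 and CT6, and that of bhlhe41 between CT6 and CT10.

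Each signal was higher at CT14 than at CT10 and higher again at CT18. In darkness the bhlhe40 signal at CT18 was 8.31 times that at CT14, that of ciarta 7.72 times and that of bhlhe41 4.58 times. In light, at CT14 the bhlhe40 signal was 7.87 times that at CT10, that of bhlhe41 7.27 times and that of ciarta 5.45 times, against 3.16, 6.43 and 4.55 times in darkness. On the log2 scale the larger of these 2 rising steps was thus CT10 to CT14 for all 3 genes in light. In darkness it was CT14 to CT18 for bhlhe40 and ciarta but CT10 to CT14 for bhlhe41. In light ciarta and bhlhe41 also rose from CT6 to CT10, by 1.36 and 0.43. Some falls were about as steep: between CT6 and CT10 bhlhe40 changed by -2.83 in light and -3.35 in darkness, and between CT22 and CT2 ciarta changed by -2.38 in light. In darkness ciarta fell less steeply than it rose, with -1.97 from CT2 to CT6 and -1.64 from CT22 to CT2, against 2.82 from CT14 to CT18. For ciarta the light pool of CT10 (128.7) was already at the level of the dark pool of CT14 (118.0), and for bhlhe40 and bhlhe41 it lay below the dark pool of CT14 (375 and 381). After CT18 the signal of all 3 genes was lower at CT22 in light, by 1.06 to 1.41 on the log2 scale. In darkness bhlhe40 did not share that step, with a change of 0.10 on the log2 scale between CT18 and CT22, while bhlhe41 changed by -0.92 and ciarta by -0.62.

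A cosine of 24 h period, fitted with a term for light, gave all 3 genes an amplitude above 2 log2 units on the log2 scale used here. The amplitude was 2.15 ± 0.30 log2 for bhlhe40 (SE, 12 arrays), 2.29 ± 0.17 for bhlhe41 and 2.34 ± 0.20 for ciarta, which is a fitted peak 19.6-fold, 24.1-fold and 25.5-fold above the trough. The highest light array was CT18 for each gene, and the highest dark array CT18 or CT22, as for 6.9% of all kept probe sets. Among the 9301 probe sets these amplitudes ranked 4, 3 and 2, and only nfil3-5 had a larger one than ciarta. The sizes and their order depended on the constant added to the signal before the log2. The lowest ciarta signals lay under the level that matches the filter, as stated above. With 1 added, the amplitudes were 2.19 for bhlhe40, 2.40 for bhlhe41 and 2.53 for ciarta. With 50 added they were 2.05, 2.05 and 1.96, so ciarta then had the smallest of the 3. All 3 were among the 184 probe sets that passed the F-test for time of day in limma at an adjusted p of 0.05 (1.98% of those tested), which is a count the choice of genes had in view. Bhlhe40 was not among them without CT10 or in fits to the light or dark arrays alone. The fitted 24 h cosine took 70.0% of the variance of bhlhe40 over the 12 arrays, 92.8% of that of bhlhe41 and 85.3% of that of ciarta. The light term took 9.88%, 0.566% and 6.93%. The rest was 20.1%, 6.64% and 7.74%, and it includes any change over the day that is not a cosine.

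The fitted peaks of bhlhe41 (CT19.2 ± 0.29 h, SE) and ciarta (CT19.2 ± 0.32 h) lay together, and that of bhlhe40 lay later, at CT22.2 ± 0.54 h. The signal of bhlhe40 was still high at CT2 in both treatments (5504 in light and 3102 in darkness), while bhlhe41 (209 and 349) and ciarta (144 and 179) were by then far below their CT18 signals. Amplitude and peak depended on single times for bhlhe40 more than for the others: without CT10 its amplitude was 1.46, and without CT22 it was 2.76. For bhlhe41 the amplitude stayed between 2.09 and 2.51 and for ciarta between 2.19 and 2.42 when any 1 time was left out. The peak of bhlhe40 moved between CT21.4 (without CT6) and CT23.1 (without CT18).

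Fitted to each treatment alone, the courses of all 3 genes peaked earlier in light. Bhlhe40 peaked at CT21.5 in light and CT22.9 in darkness, bhlhe41 at CT18.6 and CT19.9, and ciarta at CT18.2 and CT20.2. The differences were -1.35 ± 0.90 h for bhlhe40, -1.35 ± 0.44 h for bhlhe41 and -2.07 ± 0.35 h for ciarta (SE, 6 arrays in each fit). Over the 184 probe sets that passed the test for time of day, the median difference was -0.32 h, with 102 of them (55.4%) earlier in light. Amplitudes in light and darkness differed less, by -0.28, 0.37 and 0.12 log2 for bhlhe40, bhlhe41 and ciarta. Each light point was a separate pool after 1 h of light, so an earlier fitted peak is not a measured shift of the rhythm. Fitted peaks differ where the light difference varies over the cycle, and for none of the 3 genes did that variation pass the test described below. The spike-in gap between light and dark arrays, widest at CT14, was not a term in these fits.

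Among markers of other tissues, those of skin varied most between pools over the day. Of 11 skin genes, 6 passed the test for time of day, against 1.98% of all kept probe sets. The summed signal of the 11 was 1764 to 9667 on the light arrays and 1249 to 6458 on the dark arrays, lowest on the dark array of CT18. Krt5 alone had 4493 on the light array of CT10. The skin genes did not all move together: krt18a.1 peaked at CT18.4, and the others that passed between CT9.3 and CT11.4. The 11 brain neuron genes, none of which passed, summed to 9595 to 18364 on the light arrays and 9101 to 20527 on the dark arrays, highest on the dark array of CT18. Their part in the courses of the 3 genes was not tested. Of the pineal markers, 2 of 9 passed the test for time of day.

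Light after dark differed most at CT14 for all 3 genes. The light difference of bhlhe40 was 0.82 log2 at CT2, 0.49 at CT6, 1.01 at CT10, 2.37 at CT14, 1.66 at CT18 and 0.49 at CT22. Its mean was 1.14 ± 0.22 (SE by limma, n = 6 pairs), or 2.21-fold. The light difference of ciarta was -0.29, 0.17, 1.86, 2.45, 1.03 and 0.44 log2 at the same times, with a mean of 0.94 ± 0.30 or 1.92-fold. That of bhlhe41 was -0.70, -0.52, 0.77, 1.04, 0.71 and 0.22 log2, with a mean of 0.25 ± 0.23 or 1.19-fold. Limma draws the variance of a gene towards that of all probe sets, so these SEs are not the plain spread over pairs. The plain SD of the 6 differences was 0.74 log2 for bhlhe40, 0.72 for bhlhe41 and 1.05 for ciarta. In plain signal, bhlhe40 at CT14 was 5.30 times as high in light as in darkness and ciarta 5.94 times. The gain in signal units was largest at CT18, where light added 6722 to bhlhe40, 1112 to bhlhe41 and 957 to ciarta.

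Of the 3 genes, bhlhe40 was among the 147 probe sets that limma called higher in light (1.58% of the 9301 tested; 0.731% were called lower and 2.31% either way), and nothing is read from this, since the genes were chosen with it in view. It was not called without CT2, CT10 or CT18, without the time-point block, or in the fits with spike-in terms described below. All 3 genes were higher in light at each of CT10, CT14, CT18 and CT22, as were 12.4% of all kept probe sets, and bhlhe40 was higher at all 6 times, as were 5.97%. Over CT10, CT14 and CT18 the mean difference was 1.68 log2 for bhlhe40, 0.84 for bhlhe41 and 1.78 for ciarta. These times hold the 3 largest differences of each gene, so the means over them are high by construction. With only CT14 left out of the 6 times, the mean of bhlhe40 was 0.90, that of bhlhe41 0.10 and that of ciarta 0.64. Without CT2 they were 1.20, 0.45 and 1.19.

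The spike-in level moved with these differences only in part. At CT2 and CT6 bhlhe41 was lower in light, while the controls were higher. The light array exceeded the dark array in spike-in level by 0.47 log2 at CT2, 0.78 at CT6, 0.87 at CT10, 1.63 at CT14, 0.97 at CT18 and -0.03 at CT22, so CT14 had both the widest gap in the controls and the largest light difference of each of the 3 genes. Of all kept probe sets, 28.3% had their largest absolute light difference at CT14, and the median absolute difference there was 0.44 log2, against 0.30 to 0.36 at the other times. With spike-in level as a covariate beside the time points, the mean light difference was 0.24 ± 0.28 log2 for bhlhe40, -0.32 ± 0.37 for bhlhe41 and -0.17 ± 0.42 for ciarta (SE, limma). The controls were also entered as 2 classes, above and below a level of 10, beside the cosine terms. The light terms were then 1.88 ± 0.87, 0.67 ± 0.50 and 0.85 ± 0.58. The lower class holds no light array, so this fit sets light apart from class only through the dark array of CT22 and the fitted cosine. Within the 7 arrays of the higher class, CT22 is the only dark array. The light term there is the height of the cosine fitted to the light arrays above that dark array, not a mean over times. It was 1.61 log2 for bhlhe40, 0.46 for bhlhe41 and 0.47 for ciarta. The sign for bhlhe41 and ciarta thus depended on the model. Both the entry of the controls and the terms for time differed between these fits, so the part of each cannot be told apart. At CT22, where the controls of both arrays were level, the differences were 0.49, 0.22 and 0.44 log2.

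Tissue markers did not all move the same way at CT14 and CT18. The mean deviation of the 9 pineal markers from their 12-array means was -0.46 log2 after light and 0.03 in darkness at CT14, where the 3 genes were higher in light. The pineal markers were split there. Crx and tph2 were higher in light (0.69 and 0.13 log2), and the others were lower, neurod1 most (-1.53). At CT18 the mean deviation of the pineal markers was 0.45 after light and -0.28 in darkness. Brain neuron markers lay at -0.19 in light and 1.12 in darkness at that time. At CT22 brain neuron markers lay at 0.56 after light and -0.18 in darkness. None of the 9 pineal or 11 brain neuron genes was called for light. Of all 9301 kept probe sets, 4935 had a positive light difference and 2.31% were called for light. All 6 skeletal muscle genes had a positive light difference (median 0.53 log2) and 1 was called higher, acta1a (1.30 ± 0.21, adjusted p = 0.00872 by limma). Their summed signal was 620 to 1203 on the light arrays and 306 to 606 on the dark arrays, where it was highest at CT22. Of the 11 skin genes 10 were positive (median 0.26) and none was called. All 6 red blood cell genes were negative (median -0.28), and 1 was called lower, the carbonic anhydrase gene cahz (-0.79 ± 0.16, adjusted p = 0.0285 by limma); their summed signal was 3239 to 11501 on the light arrays and 5162 to 9950 on the dark arrays. The part of these markers in the light differences was not tested.

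**Figure D2:**
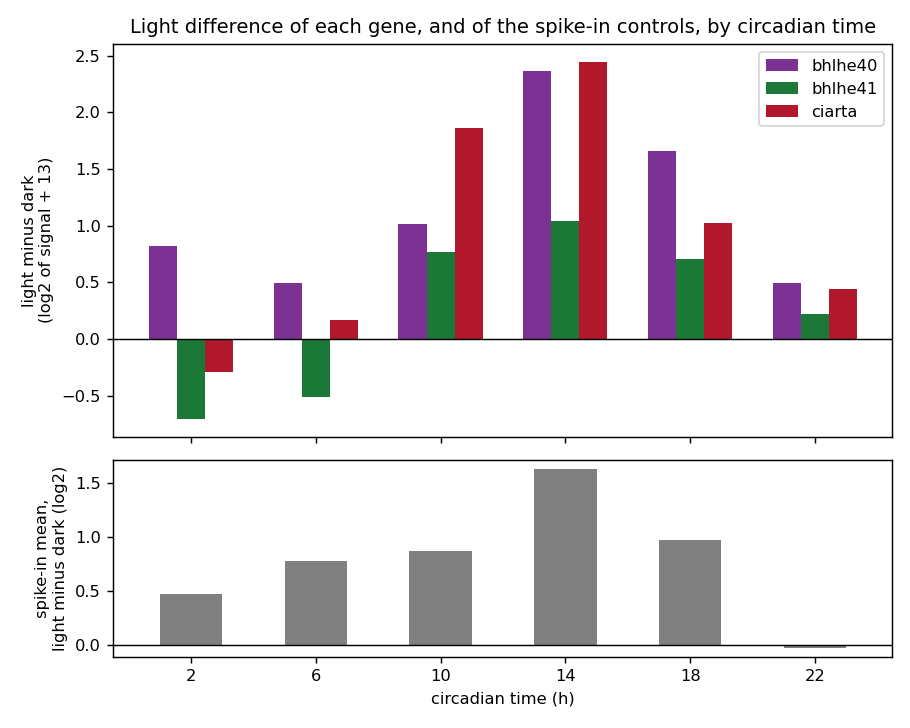
Upper panel: light minus dark difference of bhlhe40, bhlhe41 and ciarta in log2(signal + 13) at each circadian time in hours, 1 pair of pools per bar. Lower panel: the same difference in the mean log2 level of the 18 spike-in control probe sets; both are largest at CT14 (2.37, 1.04 and 2.45 for the genes, 1.63 for the controls), and at CT22 the controls differ by -0.03.

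Whether the light response changed over the cycle was tested across all probe sets. This contrast, and that of night against day below, used the same light differences by which the genes were chosen. The ranks and p-values of the chosen genes are thus not independent of that choice. The response of ciarta varied as a cosine of amplitude 1.30 ± 0.22 log2 with its maximum at CT13.5, that of bhlhe41 with 0.90 ± 0.28 at CT14.8 and that of bhlhe40 with 0.82 ± 0.62 at CT14.9 (SE, 12 arrays). By the joint F-test in limma ciarta had the second-smallest p of the 9301 probe sets (unadjusted p = 1.8e-04), but the adjusted p was 0.386 for ciarta, 0.503 for bhlhe41 and 0.780 for bhlhe40. None passed. Over all probe sets limma called 0 of 9301 (0%), with 864 at an unadjusted p under 0.05. On simulated data this test recovered 18.5% of changes with an amplitude of 1 log2 and 99% of those with 2 log2. Most changes of about 1 log2 would thus be missed. With spike-in level in the model the amplitudes were 1.64, 1.18 and 0.90 for ciarta, bhlhe41 and bhlhe40, and the adjusted p was 0.677 for ciarta.

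Subjective night and day gave the same answer. The mean light difference at CT14, CT18 and CT22 was 1.51 log2 for bhlhe40, 0.66 for bhlhe41 and 1.30 for ciarta, and at CT2, CT6 and CT10 it was 0.78, -0.15 and 0.58. Night minus day was 0.73 log2 for bhlhe40 (95% interval -0.20 to 1.65), 0.81 for bhlhe41 (-0.09 to 1.71) and 0.73 for ciarta (-0.60 to 2.05), with an adjusted p of 1.00 for each by limma. These values depended on single times: leaving out 1 time gave 0.30 (without CT14) to 1.24 (without CT22) for bhlhe40, 0.53 (without CT2) to 1.27 (without CT10) for bhlhe41 and 0.16 (without CT14) to 1.37 (without CT10) for ciarta. Limma called 0 of 9301 (0%), with 296 at an unadjusted p under 0.05, fewer than chance alone gives at that threshold. On simulated data this test recovered 0% of differences of 1 log2 and 91.5% of those of 2 log2. Each of these intervals holds both 0 and 1 log2, so a difference of that size could not be told from none with 6 pairs.

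Of the other repressor genes of the clock, 1 passed the test for light, which 2.31% of all kept probe sets passed. Of 10 such genes on the array, 5 were kept, all with a positive light difference, as had 4935 of all 9301 probe sets. The median of the 5 was 0.50 log2, against 0.02 over all 9301. The 1 called was per2, the light-induced period gene, at 1.62 ± 0.20 (SE by limma, 6 pairs, adjusted p = 0.00183 by limma). The cryptochrome genes cry1b and cry1a had 0.52 and 0.50. Cry2 had 0.16 ± 0.18 and nr1d2b, a nuclear receptor of the Rev-erb group, 0.03 ± 0.17, each smaller than its SE. The other kept probe set of cry2 had a larger light difference, given below with its amplitude. With spike-in level in the model per2 had 1.93 and did not pass (adjusted p = 0.0930 by limma; 0.862 with spike-in class and 0.990 within the higher class). Of 7 kept activator genes, 5 had a positive difference and none was called; clocka (0.43, adjusted p = 0.353 by limma) and npas2 (0.42, adjusted p = 0.487), partners of Bmal, had the smallest p. Among genes of D-box factors (tef and nfil3), all 3 kept were positive and nfil3-6 was called (1.32 ± 0.15, adjusted p = 0.00143; without the time-point block 0.0841, and 0.213 with spike-in level, 0.574 with spike-in class and 0.743 within the higher class).

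Of the family relatives of bhlhe40 and bhlhe41, 1 was called for light, as were 2.31% of all kept probe sets. Of 6 kept her, hes and hey genes, which encode bHLH-Orange repressors best known as Notch targets, 4 had a negative difference and 2, hey2 (0.35) and her5 (0.27), a positive one (median -0.32 log2); of all 9301 kept probe sets 4935 were positive. Hey1 was called lower in light, at -0.94 ± 0.17 (adjusted p = 0.0146 by limma), and her9 had -0.70 without passing. Hey1 was lower in light at all 6 times, with a signal of 111 at CT2, 97.8 at CT6, 90.8 at CT10, 91.4 at CT14, 138 at CT18 and 55.0 at CT22 in light. In darkness it was 180, 214, 245, 259, 244 and 83.4 at the same times. The dark array of CT22, the one whose spike-in controls were high, was thus far below the other dark arrays, and the call did not hold without CT6 or CT10 (adjusted p = 0.0559 and 0.0821), without the time-point block (0.0719) or with spike-in level in the model (0.544). With spike-in class in the model, or within the higher class, the difference turned to 0.045 and 0.069 log2. Both values rest on the dark array of CT22.

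Proteins with a helix-loop-helix of other kinds gave little. Over all 9301 kept probe sets, 4935 had a positive light difference, 2.31% were called for light and 1.98% for time of day. All 5 kept Id genes, whose products bind bHLH factors and keep them off DNA, had a negative light difference (median -0.13 log2), none passing; id1 had -0.59 (adjusted p = 0.0806 by limma) and id4 -0.13. Of 11 kept genes of other E-box-binding factors, such as the Usf, Myc and Mitf groups, 3 were positive and none was called for light or time of day; mxd4 (-0.36) and usf1 (-0.36) had the smallest p for light, and mycn (amplitude 0.44) and usf1l (0.30) for time of day. Of 13 kept genes of clock kinases and ubiquitin ligases, 9 were positive and none was called for light, with csnk2a2b at 0.34 and fbxw11a at 0.33.

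**Figure D3:**
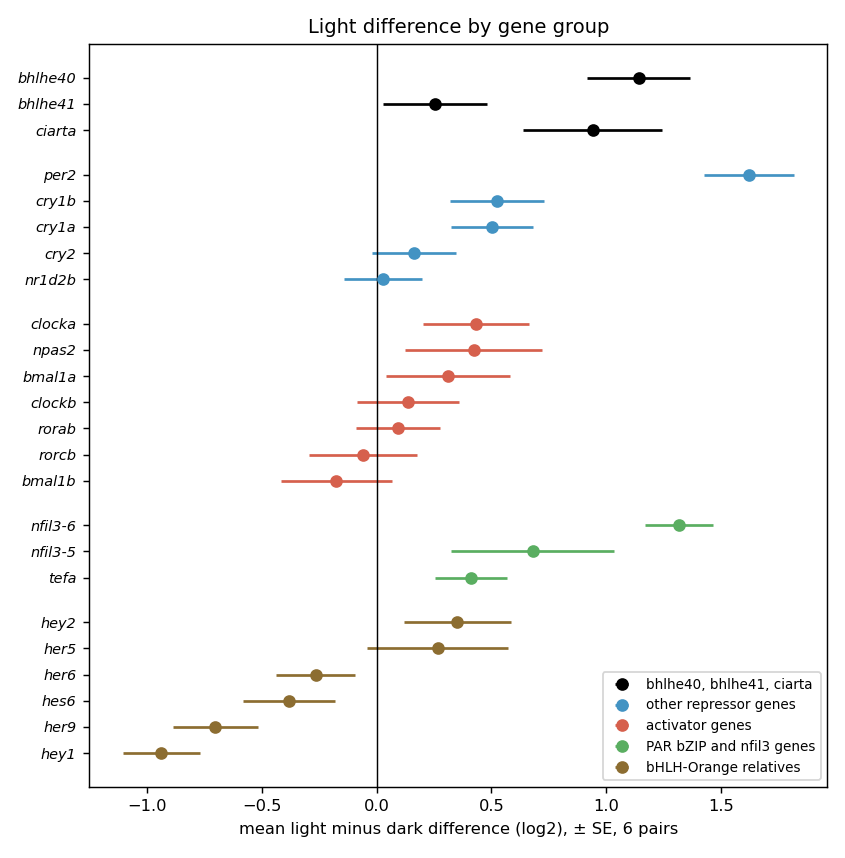
Mean light minus dark difference in log2(signal + 13), with the SE by limma from 6 pairs. Shown are bhlhe40, bhlhe41 and ciarta and the kept members of 4 groups, ordered by value within a group. Per2 (1.62) and nfil3-6 (1.32) lie right of bhlhe40 (1.14), and hey1 (-0.94; 0.045 with spike-in class in the model) and her9 (-0.70), relatives of bhlhe40 and bhlhe41, lie at the left end.

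The test for time of day was passed by 1.98% of all kept probe sets. The other repressor genes that passed peaked near bhlhe41 and ciarta, with smaller amplitudes. Of the 5 kept, 2 passed: nr1d2b, with an amplitude of 1.40 ± 0.18 log2 and a peak at CT20.0, and cry2, with 0.90 ± 0.13 at CT19.6 (adjusted p = 0.00131 and 0.00400 by limma). Probe sets disagreed for nr1d2b, whose other kept one had an amplitude of 0.14, and agreed in peak for cry2, whose other one had 1.13 at CT20.4 and a light difference of 0.56. The D-box activator gene tefa peaked at CT20.0 as well (0.72 ± 0.12). Activator genes peaked in the subjective day: rorcb, a nuclear receptor that raises Bmal genes, at CT5.4 (1.86 ± 0.17) and bmal1a at CT6.9 (1.24 ± 0.19), the only 2 of 7 that passed. The D-box repressor gene nfil3-5 peaked at CT7.3 (2.57 ± 0.25) and its relative nfil3-6 at CT23.8 (0.94 ± 0.11). Also passing were id2b, with a peak at CT8.0 (0.98 ± 0.15), and fbxl3a, of the ubiquitin ligase that removes cryptochromes, at CT7.7 (0.60 ± 0.12). None of the 6 kept her, hes and hey genes passed; her9 had an amplitude of 0.49 and hey1 0.33. Some of these calls rested on single times or on 1 treatment. Cry2 did not pass without CT10 or CT18 (adjusted p = 0.0677 and 0.0633 by limma), bmal1a without CT6 or CT10 (0.0596 and 0.0590), id2b without CT10 (0.0590), tefa without CT6, CT18 or CT22 (0.129, 0.121 and 0.0873) and fbxl3a without any 1 of CT6, CT10, CT14, CT18 and CT22 (0.0709 to 0.223). Fitted to the dark or the light arrays alone, with 6 arrays each, rorcb and nfil3-5 passed in both. Nr1d2b passed in darkness but not in light (adjusted p = 0.187 by limma) and cry2 in light but not in darkness (0.190), a difference that was not tested, and bmal1a, nfil3-6, tefa, id2b and fbxl3a in neither (0.0553 to 0.437). Without the light term nfil3-6 (0.210), tefa (0.0513) and fbxl3a (0.0772) did not pass, and with spike-in level fbxl3a did not (0.0746).

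**Figure D4:**
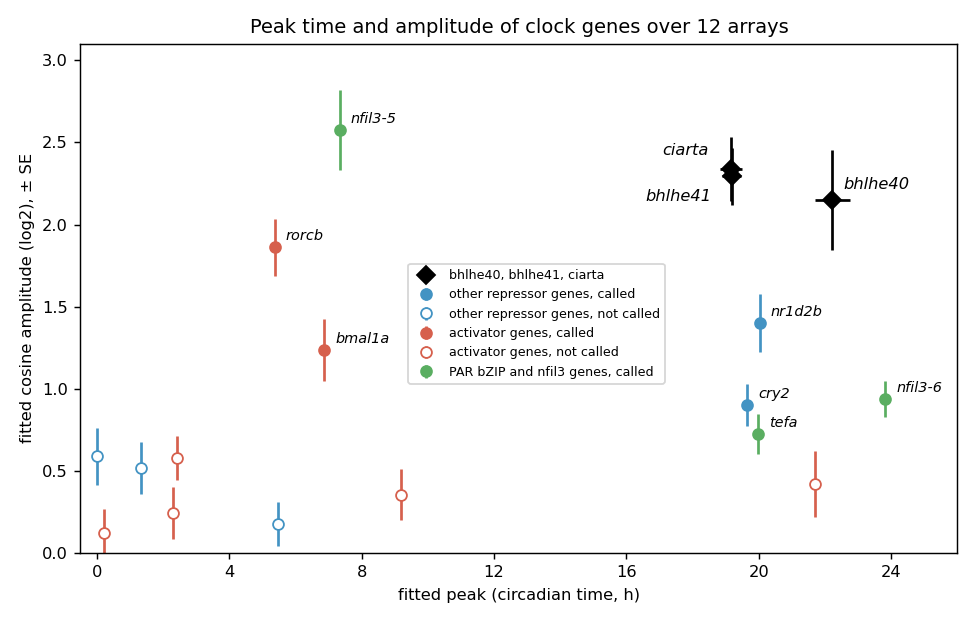
Fitted 24 h cosine amplitude in log2 (with SE) against fitted peak in circadian hours over the 12 arrays; diamonds are bhlhe40, bhlhe41 and ciarta (with the SE of the peak as well), filled circles are genes that passed the test for time of day and open circles genes that did not. Bhlhe41 and ciarta lie together at CT19.2 above nr1d2b, tefa and cry2, bhlhe40 lies at CT22.2, and rorcb, bmal1a and nfil3-5 lie between CT5.4 and CT7.3.

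The profiles of bhlhe41 and ciarta were more like each other than either was like that of bhlhe40. Over the 12 arrays, Pearson's r of the log2 values was 0.97 between bhlhe41 and ciarta, 0.68 between bhlhe40 and bhlhe41 and 0.67 between bhlhe40 and ciarta; the arrays share their scaling and pools, and r is given as a description. Within the 6 light arrays r was 0.99, 0.67 and 0.54 for the same pairs, and within the 6 dark arrays 0.98, 0.73 and 0.75. The same gene besides its partner was nearest to both bhlhe41 and ciarta among 6024 other genes, the cryptochrome gene cry2 (r = 0.97 and 0.94).

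The other genes of highest r with bhlhe41 were slc38a4, an amino acid transporter gene (0.90), krt18a.1, a keratin gene among the skin markers above (0.90), and rpe65a, of the retinoid isomerase of the visual cycle (0.90). For ciarta they were zcchc9 (0.90), krt18a.1 (0.90) and cfap298, a gene of motile cilia (0.90). At the opposite end stood zgc:152863 (-0.92), nfil3-5 (-0.92) and si:ch211-157b11.12 (-0.91) for bhlhe41, and si:ch211-157b11.12 (-0.93), zgc:152863 (-0.92) and cpt1ab, of mitochondrial fatty acid import (-0.91), for ciarta. The 5 genes nearest to bhlhe40 were cyp2p6, a cytochrome P450 gene (0.91), igfbp1b, of an insulin-like growth factor binding protein (0.88), mettl9 (0.87), zgc:103692 (0.87) and sh2d3cb (0.86), and none of the 5 passed the test for time of day or for light. Its lowest were si:ch211-76l23.4 (-0.88), pcbp4 (-0.87) and rftn2 (-0.87).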

How the data were processed

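The authors deposited intensities on a linear scale, MAS5 signals of single arrays, made with GCOS and MAS5 per the submitters' processing notes (versions not given in the sources used here). The 2% trimmed mean was 200.04 on every array of the deposited table. RNA was amplified in 2 rounds from an oligo(dT) primer per the labels' protocols, so signals come mainly from 3' ends. The genes and gene lists were chosen with earlier results of these data known. Signals were converted to log2 after adding 13, their 10th percentile; probe sets with a mean log2 under 6.16, the 40th percentile, were left out. Models were fitted in limma (version 3.58.1, under R 4.3.3) by lmFit and eBayes with trend, two-sided, Benjamini-Hochberg adjusted over 9301 probe sets, with a threshold of 0.05. Light was tested with time point as a block; the pairing comes from the labelled times, and deviations of paired arrays correlated across probe sets with r of -0.05 to 0.30. Time of day was tested by a 24 h cosine and sine beside light, and the light response by their products with light, or by light and night. P-values measure the spread over times and pools. The SEs of differences, amplitudes and peaks rest on the variances of limma, which are drawn towards those of all probe sets. The steps were tested on simulated data. 1 probe set, that of highest mean, stood for a gene. Named were the 3 genes; from each list, up to 6 called genes per contrast or else the 2 of smallest p; and for each of the 3 genes the 5 of highest and 3 of lowest r. Of all probe sets, 10802 had 1 symbol, 135 several and 4680 none, and 1 symbol was updated. The alternatives were other pseudocounts, no filter, quantile normalization, spike-in terms, no block, each treatment alone and each time left out. The number of arrays limits the precision.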

Additional observations from a re-analysis of the deposited data

Results flagged for a closer look

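Hey1, a bHLH-Orange relative of bhlhe40 and bhlhe41, had 1 dark array far from the other 5. The gap between the dark array of CT22 (signal 83.4) and the nearest other, CT2 (180), was 0.666 of the range of the 6 dark arrays on the log2 scale, above Dixon's 95% critical value for 6 samples. That array also had spike-in controls at the level of the light arrays (10.62 log2). Of 42 groups of values examined in this way 1 was flagged, and chance flags about 5%.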

How the results depend on the processing

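The night-minus-day differences of bhlhe40, bhlhe41 and ciarta kept their direction under all alternatives run (other pseudocounts, no filter, quantile normalization, spike-in level, each time left out), and the light response by time passed the threshold for none of the 3 under any. Leaving out 1 time moved the amplitude of bhlhe40 between 1.46 and 2.76. The mean light difference of bhlhe40 was positive in all these settings, and lowest with spike-in level as a covariate, at 0.24 log2. For bhlhe41 and ciarta it was positive except with that covariate, where it was -0.32 and -0.17 log2. The cause was not tested. At CT22 alone the light difference of bhlhe40 was 0.49. Settings added after the data were seen used spike-in class with cosine terms, or the 7 arrays of the higher class. Their light terms, which are not means over times, were 1.88 and 1.61 for bhlhe40 and 0.67 with class for bhlhe41. Those of hey1 turned to 0.045 and 0.069. Both settings set light apart from class only through the dark array of CT22 and the fitted cosine. Without the replicate block (time point) the 3 means are the same by construction, 97 probe sets were called higher and 30 lower in light (147 and 68 with it), and 101 for time of day without light (184 with it). The counts higher and lower were 5 and 3 with spike-in level, 3 and 0 with class, and 0 and 0 by limma within the higher class (433 at an unadjusted p under 0.05), where the only dark array is CT22, so its spread is assumed to be that of the light arrays; without the filter 44 were lower. Time of day gave 20 calls from dark and 23 from light arrays alone. Leaving out 1 time gave 58 to 216 higher, 13 to 135 lower and 48 to 121 for time of day, lowest without CT10, and 0 to 1 for the light response by time and for night minus day; spike-in level gave 1 for the light response by time. No replacement for a second probe set was run, since each gene had 1.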
